A study of Mus musculus with 14 samples.

Results

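Expression of 7 genes best known from neurons was followed in mouse primary oligodendrocyte precursor cells (OPCs) in which Secisbp2l (Sbp2l), a paralog of the selenocysteine factor Sbp2, was knocked down. The genes were Dcx, Syt1, Cntn2, Tubb3, Snap25, Stmn2 and Slc17a7, taken by symbol from a table of 23427 genes. Dcx, Syt1 and Cntn2 were selected on their high values in siSbp2l cells against the Day3 controls, and Tubb3, Snap25, Stmn2 and Slc17a7 were set beside them as further neuronal genes, so values of the 7 genes in siSbp2l against its controls are given as a description and without a test. The study asked how loss of Sbp2l alters differentiating oligodendrocytes (OLs). OPCs were immunopanned with an antibody against the receptor Pdgfra from pooled cortices of 3 C57BL/6J pups at postnatal day 7, and differentiation was started by taking away PDGF-AA and adding thyroid hormone T3. The 14 mRNA-seq libraries formed 7 groups with 2 libraries each. Day0 cells were wild type and harvested before differentiation. The other 6 groups were harvested at Day3 and came from wild-type cells as well. Among these, the non-treat, mock, NC siRNA#1 and NC siRNA#2 groups served as controls, the last pair with non-targeting siRNAs, and siSbp2l and siPdgfra cells received an siRNA (a small RNA that lowers a matching mRNA) against Secisbp2l or Pdgfra. The methods speak of 2 independent replicates of the cultures, and p-values cover the spread between these libraries only. The growth protocol in the labels names a medium with serum, whereas the OPC medium listed in the methods names none. No label says how pure the cells were.

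Young neurons build and remodel their microtubules while they migrate and extend axons, find partners through adhesion molecules, and later release transmitter by fusing vesicles with the membrane. Dcx (doublecortin) binds and stabilises microtubules of migrating neurons, Tubb3 is the β-tubulin isotype used as a neuronal antigen, and Stmn2 is a stathmin that binds free tubulin in growth cones. Cntn2 (TAG-1) is a GPI-anchored adhesion molecule of growing axons that OLs also use where myelin meets the axon. Syt1 is the calcium sensor of fast vesicle release, Snap25 is the SNARE protein through which vesicles fuse, and Slc17a7 (Vglut1) loads glutamate into vesicles. OPCs and OLs arise from progenitors that can also give neurons, and low levels of several neuronal mRNAs are known from OPCs.

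The stretches directly upstream of the transcription starts of Dcx, Syt1 and Cntn2 are shown because these 3 genes shared a high value in siSbp2l. Each is the 250 bases before the RefSeq start in GRCm38.p6, read 5′ to 3′ on the strand of the gene, which was minus for all 3. They lie at chrX:143933220-143933469 for Dcx, chr10:109010976-109011225 for Syt1 and chr1:132542941-132543190 for Cntn2. Capitals mark matches to 6 motifs that were searched on both strands. They were CTTTGA, the core of TCF/LEF sites, then CAGCACC, which is part of the site of the neuronal repressor Rest, and the E-box CAGCTG. The others were the TATA box with the letters TATAAA, the GC box with the letters GGGCGG, and the CCAAT box.
Dcx: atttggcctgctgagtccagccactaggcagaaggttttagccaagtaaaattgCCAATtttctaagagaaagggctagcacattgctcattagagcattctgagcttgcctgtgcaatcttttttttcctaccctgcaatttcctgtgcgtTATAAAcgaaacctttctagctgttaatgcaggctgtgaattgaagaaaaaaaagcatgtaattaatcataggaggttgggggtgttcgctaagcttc
Syt1: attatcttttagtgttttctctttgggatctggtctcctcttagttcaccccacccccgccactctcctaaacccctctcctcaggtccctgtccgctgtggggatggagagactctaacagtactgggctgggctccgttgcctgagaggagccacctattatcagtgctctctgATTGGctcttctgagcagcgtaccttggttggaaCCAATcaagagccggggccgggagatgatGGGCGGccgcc
Cntn2: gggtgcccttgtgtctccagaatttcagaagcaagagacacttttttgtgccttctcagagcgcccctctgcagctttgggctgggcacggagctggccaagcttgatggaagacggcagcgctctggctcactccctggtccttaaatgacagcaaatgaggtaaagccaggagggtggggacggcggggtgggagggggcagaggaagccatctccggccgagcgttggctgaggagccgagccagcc
The Dcx stretch held TATAAA 98 to 93 bases and CCAAT 196 to 192 bases before the start. The Syt1 stretch held CCAAT on each strand, 74 to 70 and 40 to 36 bases before the start, and GGGCGG at 11 to 6. The Cntn2 stretch held none of the 6 motifs, no motif was found in all 3 stretches, and no marked letters belong to more than 1 motif. Of 32851 such stretches in the RefSeq table, 13.8% held the TCF/LEF core, 5.73% the Rest motif, 13.0% the E-box, 12.4% the TATA box, 32.7% the GC box and 33.8% the CCAAT box. GC content was 41.6% upstream of Dcx, 56.4% upstream of Syt1 and 61.2% upstream of Cntn2, against a median of 52.4%. The table held entries for 5 of the 7 genes, and for Dcx and Syt1 it also held a second start whose upstream stretch is not shown.

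Levels are FPKM values (fragments per length of exon, scaled to the depth of the library), which allow genes to be compared per length. The depth recovered from the values was 6561225 fragments in NC siRNA#2 replicate 2 and up to 31623590 in Day0 replicate 1, and 10834 to 11034 genes reached 1 FPKM in a library. The 2 non-treat libraries stood apart from each other: the SD of their log2 difference across genes was 0.457, against at most 0.1995 in the other groups, and the difference moved with the GC content of the genes (Spearman's rho = 0.80 across genes, which are not independent). This rho was 0.53 between the Day0 libraries, -0.46 between those of NC siRNA#1 and from -0.06 to 0.20 in the other groups. Secisbp2l was at 3.82 and 3.91 FPKM in siSbp2l and at 134.7 or above in all 8 control libraries of Day3, and Pdgfra was at 2.69 and 3.30 FPKM in siPdgfra and at 32.4 or above in those controls. Summed FPKM of 6 OL markers was 392 to 435 at Day0, 4617 to 8696 in the controls, 1596 to 1780 in siSbp2l and 4094 to 4736 in siPdgfra. That of 6 OPC markers, with Pdgfra among them, was 2041 to 2341 at Day0, 750 to 1138 in the controls, 1052 to 1072 in siSbp2l and 911 to 1024 in siPdgfra. Olig1, Olig2 and Sox10 made up most of this sum, which therefore says little about single markers. Pdgfra alone was at 144 to 150 FPKM in siSbp2l, above the controls with 32.4 to 72.1. The other OPC markers in siSbp2l overlapped the range of the controls. In siPdgfra, Cspg4 was at 0.448 to 0.540 FPKM, against 0.958 to 2.81 in the controls.

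**Figure D1:**
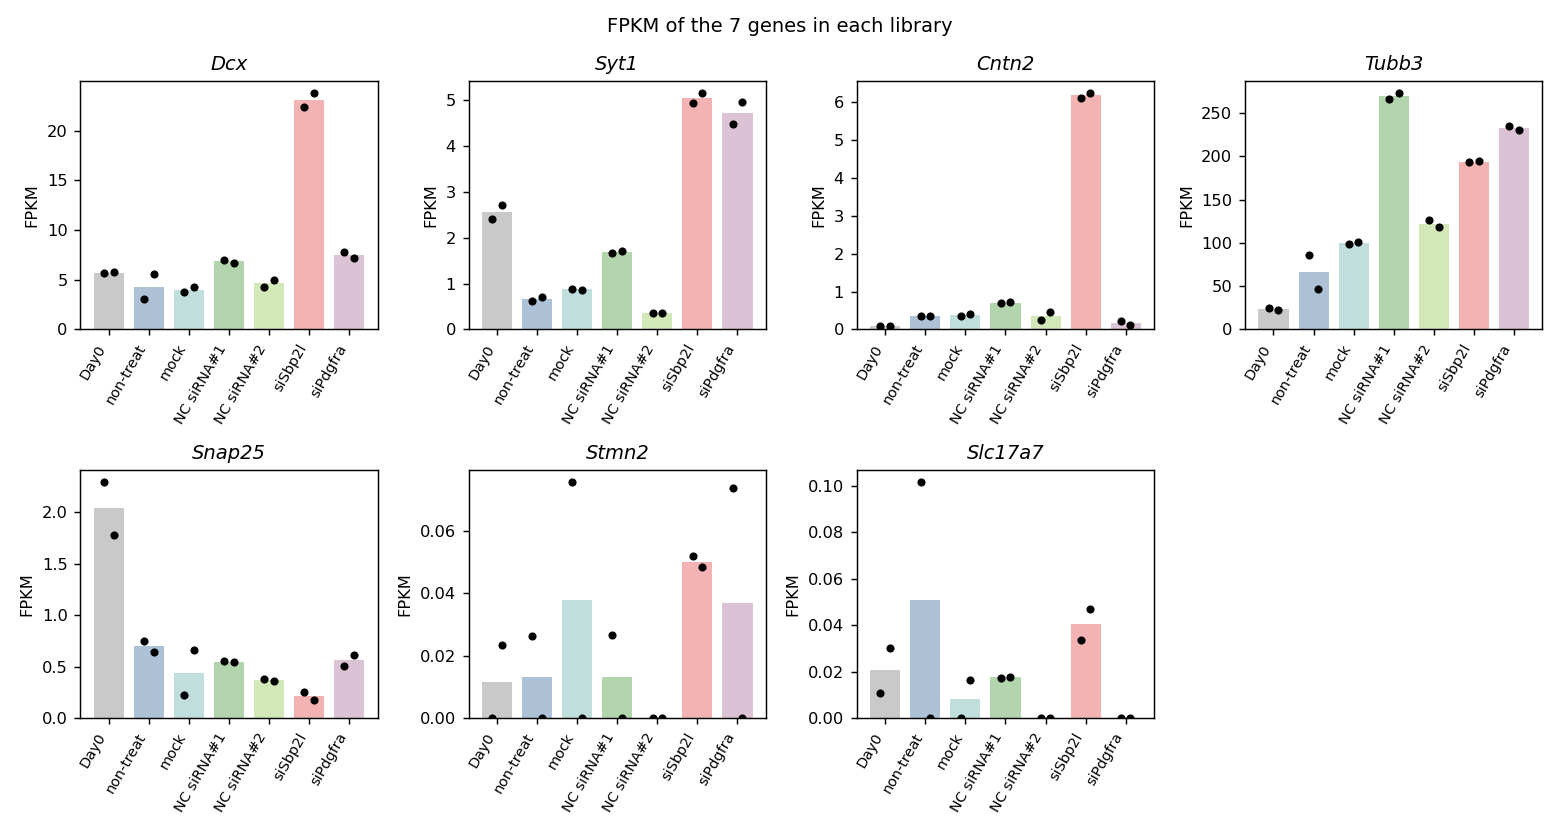
FPKM of the 7 genes (linear axes that start at 0 and differ between panels) in the 7 groups, with bars for the mean of 2 libraries and points for the libraries. Dcx and Cntn2 were high in siSbp2l alone, Syt1 in siSbp2l and siPdgfra, Tubb3 was highest in NC siRNA#1, and the scales of Stmn2 and Slc17a7 end near 0.1 FPKM.

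Dcx (chromosome X, 143855842 to 143933219, minus strand, mm10) was expressed in every library. Its FPKM was 5.63 and 5.80 at Day0, 3.06 and 5.53 in non-treat, 3.71 and 4.28 in mock, 6.98 and 6.72 in NC siRNA#1, 4.27 and 5.00 in NC siRNA#2, 22.3 and 23.8 in siSbp2l, and 7.76 and 7.21 in siPdgfra. Both siSbp2l libraries lay above the other 12, which ran from 3.06 to 7.76. The siSbp2l mean was 4.67 times the mean of the 4 control means, 3.37 times the highest of them (NC siRNA#1) and 4.04 times Day0. Day0, NC siRNA#1, siPdgfra and siSbp2l followed each other in rising order with no overlap between neighbouring groups, whereas mock, non-treat and NC siRNA#2 overlapped at the bottom. In siSbp2l, 3756 of all genes had a higher mean, against 7518 to 8775 in the controls.

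Syt1 (chromosome 10, 108497650 to 109010975, minus strand) had FPKM values of 2.41 and 2.71 at Day0, 0.620 and 0.711 in non-treat, 0.883 and 0.862 in mock, 1.66 and 1.70 in NC siRNA#1, 0.365 and 0.354 in NC siRNA#2, 4.94 and 5.16 in siSbp2l, and 4.49 and 4.95 in siPdgfra. Both knockdown groups lay above all other libraries, and they overlapped each other. The siSbp2l mean was 5.64 times the mean of the control means, and the siPdgfra mean was 5.28 times. The factor for siSbp2l ran from 3.003 against NC siRNA#1 to 14.1 against NC siRNA#2, and the means of these 2 controls themselves differed 4.68-fold. The values of NC siRNA#2 rested on an estimated 33 and 11 fragments, and those of siSbp2l on 483 and 540. The annotated gene Gm5136 overlaps Syt1 and was at 0 to 0.047 FPKM.

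Cntn2 (chromosome 1, 132509425 to 132542940, minus strand) was below 1 FPKM in every library outside siSbp2l. It was at 0.0796 and 0.0886 FPKM at Day0, 0.361 and 0.354 in non-treat, 0.343 and 0.413 in mock, 0.697 and 0.715 in NC siRNA#1, 0.2497 and 0.464 in NC siRNA#2, 6.12 and 6.25 in siSbp2l, and 0.216 and 0.121 in siPdgfra. The siSbp2l libraries, with an estimated 1182 and 1293 fragments, were separated from the rest by the widest relative gap among the 7 genes. The next highest library, in NC siRNA#1, had 0.715 FPKM. The siSbp2l mean was 13.8 times the mean of the control means, 8.76 times NC siRNA#1, 73.5 times Day0 and 36.8 times siPdgfra, where Cntn2 was below all 8 controls. The Day0 values rested on 24 and 19 fragments and the control values on 29 to 131. Windows of 75 bases that also occur in another gene made up 0.605% of the Cntn2 transcript and 0% of the transcripts of the other 6 genes.

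Tubb3 (chromosome 8, 123411564 to 123422010, plus strand) was the most abundant of the 7 genes per length in all 7 groups. Its FPKM was 24.6 and 22.8 at Day0, 86.0 and 46.3 in non-treat, 98.3 and 100.5 in mock, 266.5 and 273.5 in NC siRNA#1, 126 and 118 in NC siRNA#2, 193 and 194 in siSbp2l, and 235 and 230 in siPdgfra. No groups overlapped, and the highest was a control. The siSbp2l mean was 1.39 times the mean of the control means, but 2.93 times non-treat and 0.72 times NC siRNA#1, so its direction turned with the control chosen. The 2 non-treat libraries differed most, and in the opposite sense from Dcx, whose transcripts had 41.6% GC against 58.0% for Tubb3. As a share of the summed FPKM of 8 β-tubulin genes, Tubb3 was 1.27% at Day0, 2.28 to 4.87% in non-treat, mock and NC siRNA#2, and stood at 7.88 to 8.01% in NC siRNA#1, 9.88 to 9.97% in siSbp2l and 8.77 to 9.01% in siPdgfra. On this scale, a share and not a level, siSbp2l lay above every other group. Tubb4a, the most abundant β-tubulin gene of the Day3 groups, was at 849 FPKM in siSbp2l and at 1671 to 2381 in the controls.

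The genes that served as neuron checks were low throughout. Snap25 (chromosome 2, 136713450 to 136782428, plus strand) was at 2.30 and 1.78 FPKM at Day0, 0.753 and 0.641 in non-treat, 0.227 and 0.658 in mock, 0.551 and 0.545 in NC siRNA#1, 0.383 and 0.360 in NC siRNA#2, 0.256 and 0.174 in siSbp2l, and 0.507 and 0.614 in siPdgfra. Day0 was above all Day3 libraries, and the siSbp2l libraries, with 11 and 8 fragments, had the lowest group mean and overlapped the range of mock. Stmn2 (chromosome 3, 8509527 to 8561604, plus strand) had an estimated 0 to 3 fragments in each of the 14 libraries, and no library exceeded 0.0758 FPKM. Slc17a7 (chromosome 7, 45163921 to 45176139, plus strand) had 0 to 6 fragments, with the highest value of 0.102 FPKM in non-treat replicate 1. For 3 fragments the floor of Stmn2 was 0.0498 FPKM in Day0 replicate 1 and 0.240 FPKM in NC siRNA#2 replicate 2, so differences between groups in Stmn2 and Slc17a7 were not detectable at this depth. In siSbp2l, no library had more than 0.256 FPKM of Snap25, 0.0518 of Stmn2 or 0.0470 of Slc17a7, whereas Dcx, Syt1 and Cntn2 were all at 4.94 or above.

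Change with differentiation was tested for the genes with at least 1 FPKM in at least 2 libraries (11874 genes, limma on log2(FPKM + 1), 14 libraries). A gene was called at a Benjamini-Hochberg adjusted p under 0.05 and a change of at least 2-fold. The non-treat and mock groups against Day0 gave 11.6% of genes called higher and 14.4% called lower, and 5 of the 7 genes could be tested. Tubb3 rose by 1.70 in log2(FPKM + 1) (SE 0.18; limma, adjusted p = 5.69e-06) and was called. Syt1 fell by 1.01 (SE 0.08; limma, adjusted p = 3.37e-07) and was called, just past the 2-fold line. Syt1 was -0.93 without the non-treat group and -0.97 with median-ratio scaling, below that line. Snap25 had passed the filter only through Day0, so it had to differ, and its difference was -0.96 (SE 0.12; limma, adjusted p = 1.85e-05), under 2-fold. Dcx differed by -0.41 (limma, adjusted p = 0.0346) and Cntn2 by 0.33 (limma, adjusted p = 0.00293), both under 2-fold. Cntn2 had passed the filter only through siSbp2l, and on the linear scale its mean in non-treat was 4.25 times that of Day0, and in mock it was 4.496 times. So Tubb3 and Syt1 were called in opposite directions over the same days.

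The controls themselves were compared next, because the members differed among them. In the fit of the 12 Day3 libraries (11650 genes, 4 of the 7 genes tested), both NC siRNAs against non-treat and mock gave 0.472% of genes called higher and 0.807% called lower. Tubb3 was called higher, by 1.19 (SE 0.15; limma, adjusted p = 0.000395). Its difference was 0.86 without the non-treat group and 0.62 without the NC siRNA#1 group, and it was then no longer called. Dcx was 0.39 higher (limma, adjusted p = 0.0522), and Syt1 (0.11) and Cntn2 (0.15) did not pass either threshold. NC siRNA#2 against NC siRNA#1 gave 1.63% of genes called higher and 2.36% called lower. Tubb3 was lower in NC siRNA#2, by -1.14 (SE 0.22; limma, adjusted p = 0.00428), and was called. Syt1 differed by -0.98 (SE 0.09; limma, adjusted p = 5.53e-05), just under 2-fold on this scale although the ratio of its means was 4.68. Cntn2 differed by -0.34 (limma, adjusted p = 0.0424) and Dcx by -0.48 (limma, adjusted p = 0.105). All 4 tested genes were thus lower on average in NC siRNA#2, and for Syt1 and Tubb3 the adjusted p was under 0.05. Cntn2 was in this fit only through siSbp2l and had 29 fragments in NC siRNA#2 replicate 2, so nothing is read from its adjusted p. Summed FPKM of the OL markers differed in the same sense between these controls, with 8522 to 8696 in NC siRNA#1 and 4617 to 4757 in NC siRNA#2, and its part in these differences was not tested.

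In siPdgfra against the same 4 Day3 controls that had served to pick the genes, 3.97% of genes were called higher and 4.03% lower. Syt1 rose by 1.64 (SE 0.07; limma, adjusted p = 1.50e-07) and was called, and both siPdgfra libraries lay above all 8 control libraries. It was also called against each single control, with differences of 1.09 against NC siRNA#1 to 2.07 against NC siRNA#2. With a pseudocount of 5 the difference was 0.73, under 2-fold. Tubb3 was 0.95 higher (SE 0.17; limma, adjusted p = 0.0011), just under 2-fold, and the single controls gave values between -0.21 (NC siRNA#1) and 1.86 (non-treat). It was called, at 1.34, when the NC siRNA#1 group was left out, and at 1.06 without non-treat replicate 1. Dcx was 0.55 higher (SE 0.15; limma, adjusted p = 0.0106) and Cntn2 0.30 lower, at -0.30 (SE 0.08; limma, adjusted p = 0.00957), both under 2-fold, and Cntn2 was again in the fit only through siSbp2l. Against NC siRNA#1 alone, Dcx differed by 0.11 (limma, adjusted p = 0.642). Snap25, Stmn2 and Slc17a7 were too low to be tested.

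The same contrast for siSbp2l, which picked the genes, gave 3.12% of genes called higher and 4.08% lower, and nothing is read from the members' place among them. The log2 differences were 2.32 (SE 0.08) for Cntn2, 2.05 (SE 0.15) for Dcx, 1.72 (SE 0.07) for Syt1 and 0.68 (SE 0.17) for Tubb3. Against single controls they ran from 2.07 to 2.41 for Cntn2, from 1.62 to 2.27 for Dcx, from 1.17 to 2.15 for Syt1 and from -0.48 to 1.60 for Tubb3. The smallest value of each gene was the one against NC siRNA#1. Side by side, and with shared controls, Syt1 had 1.72 in siSbp2l and 1.64 in siPdgfra, Tubb3 0.68 and 0.95, Dcx 2.05 and 0.55, and Cntn2 2.32 and -0.30. No test was made between the knockdowns, whose libraries overlapped for Syt1 and not for Dcx, Cntn2 or Tubb3. Summed OL markers were lower in both siSbp2l libraries than in every control library, and their part in the values of the members was not tested. The log2(FPKM + 1) scale understates the change of genes near or below 1 FPKM, which applies to Cntn2 and Syt1. FPKM as deposited put the median of all genes at 0.15 in siSbp2l, and relative to that median the members' values were smaller by this amount. Of the genes called in siSbp2l, 43.3% were higher as deposited, 25.8% with median-ratio scaling and 34.6% with upper-quartile scaling.

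**Figure D2:**
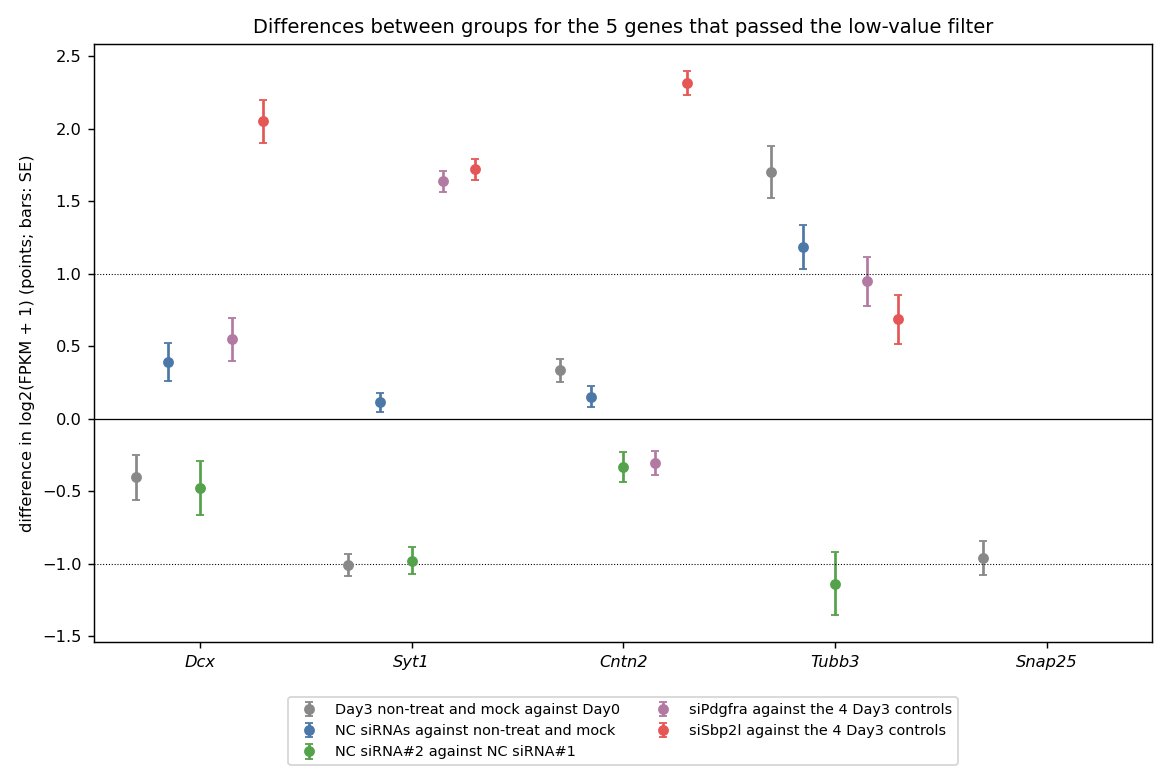
Differences in log2(FPKM + 1) with SE for the 5 genes that passed the low-value filter, in 5 comparisons, with dotted lines at a 2-fold change. The siSbp2l points (values that picked the genes) reach 2.05 for Dcx and 2.32 for Cntn2, siPdgfra reaches 1.64 for Syt1, and Tubb3 lies at 1.70 for Day3 against Day0 and -1.14 between the NC siRNAs.

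Each gene was then set beside its family. In the doublecortin family, Dcx made up 16.6 to 17.5% of the summed FPKM of 5 genes in siSbp2l and 4.21 to 7.54% in the 8 control libraries. Dclk1, the kinase paralog with the highest mean, was at 65.8 FPKM in siSbp2l and 36.0 to 53.5 in the controls, and its log2 difference of 0.47 was under 2-fold. Dclk3 was lowest, below 1 FPKM in every group mean. Dcdc2a, a doublecortin-domain gene of cilia and microtubules, fell in siSbp2l, by 1.11 (limma, adjusted p = 2.21e-05), and had a difference of -1.405 in siPdgfra (limma, adjusted p = 4.59e-06). In siSbp2l Dcdc2a was at -0.996 without the non-treat group and -0.98 without the NC siRNA#1 group, and was then not called.

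Among the 6 contactins, Cntn2 was joined by Cntn6, an adhesion molecule of developing neurons. Cntn6 was at 0.053 and 0.0869 FPKM at Day0, 0.139 to 0.327 in non-treat, 0.0806 to 0.282 in mock, 1.60 to 1.83 in NC siRNA#1, 0.363 to 0.554 in NC siRNA#2, 6.18 to 6.26 in siSbp2l and 6.41 to 7.14 in siPdgfra. Both knockdown groups lay above all other libraries, and the rise was 2.22 in siSbp2l (SE 0.10; limma, adjusted p = 1.98e-07) and 2.33 in siPdgfra (SE 0.10; limma, adjusted p = 1.44e-07). Cntn2 and Cntn6 were at like levels in siSbp2l, while in siPdgfra Cntn2 was at 0.216 and 0.121. Cntn1, the most abundant contactin, was at 104 FPKM in siSbp2l and 81.1 to 120 in the controls, with a difference of 0.08, and Cntn5, the lowest, was at most 0.0728 FPKM in a library. Cntn3 rose by 1.47 in siPdgfra (limma, adjusted p = 6.50e-07) and was at -0.67 in siSbp2l (limma, adjusted p = 0.000112), under 2-fold. Nfasc, an adhesion molecule of axon and myelin, fell in siSbp2l, by 2.01 (limma, adjusted p = 8.36e-08), and also in siPdgfra, by 1.32 (limma, adjusted p = 7.21e-07). Chl1, an L1-family adhesion molecule, fell by 1.29 in siPdgfra (limma, adjusted p = 4.52e-05).

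Syt1 was a minor synaptotagmin, at 1.19 to 1.25% of the summed FPKM of 17 family genes in siSbp2l and 0.0682 to 0.362% in the controls. Syt11 had the highest mean and Syt8 the lowest: Syt11 was at 374 FPKM in siSbp2l and 357 to 402 in the controls, with a difference of -0.03, and Syt8 was listed at 0 in 6 of the 7 groups. Syt7, a slow calcium sensor of membrane fusion, was at 3.34 and 3.41 FPKM in siSbp2l and 0.814 to 1.30 in the controls, and rose by 1.04 (limma, adjusted p = 3.83e-06). It was no longer called with median-ratio or upper-quartile scaling, which left 0 synaptotagmins called higher. Syt4, a synaptotagmin that does not need calcium, went in opposite directions: it fell in siSbp2l, by 1.78 (limma, adjusted p = 4.99e-06), and rose by 1.42 in siPdgfra (limma, adjusted p = 2.02e-05). Its FPKM was 23.2 and 23.9 in siSbp2l, 52.4 to 150.02 in the controls and 214 to 236 in siPdgfra.

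Among the tubulins, Tubb4a had the highest mean and Tubb1, which was listed at 0 in 6 of the 7 groups, the lowest. Tubb4a fell by 1.27 in siSbp2l (limma, adjusted p = 7.19e-05). Tubb2b, an isotype of migrating neurons, rose by 1.24 in siPdgfra (limma, adjusted p = 0.000274) and was 0.94 higher in siSbp2l (limma, adjusted p = 0.0016), under 2-fold. Tubb2a rose by 1.10 in siPdgfra (limma, adjusted p = 0.00017) and differed by 0.13 in siSbp2l (limma, adjusted p = 0.477). While Stmn2 stayed at or near 0, the other stathmins were expressed and moved apart in siSbp2l. Stmn4, the lowest of them at Day0, rose by 1.22 (limma, adjusted p = 6.03e-07), and in siPdgfra it rose by 2.33 (limma, adjusted p = 2.45e-08), to 80.2 and 86.0 FPKM. Stmn1, the stathmin with the highest mean, fell by 1.54 in siSbp2l (limma, adjusted p = 1.37e-05) to 21.4 and 25.4 FPKM. Stmn3 had a difference of -1.01 (limma, adjusted p = 0.000992), just past the 2-fold line. Stmn3 was not called without the NC siRNA#1 group (-0.75), nor when non-treat replicate 1 (-0.90), NC siRNA#1 replicate 2 (-0.998), NC siRNA#2 replicate 2 (-0.99) or siSbp2l replicate 1 (-0.97) was left out. The broadly used paralogs of Snap25, which are Snap23, Snap29 and Snap47, were at 15.2 to 40.2 FPKM over the libraries, and none of these 3 was called in either knockdown.

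Other neuronal genes were read as 10 lists with 112 distinct genes, none of them a member, of which 76 could be tested at Day3. In siSbp2l, 6 were called higher and 10 lower against the controls, that is 16 of 76. Over all genes tested, 3.12% were called higher and 4.08% lower. The lists were chosen with earlier results of these data known, so no excess is read from these counts. The median difference of the list genes was 0.04 against 0.15 for all genes tested. Gap43 (growth cones) rose by 1.404 (limma, adjusted p = 5.27e-06), to 249.5 and 280.2 FPKM, near its Day0 values of 265.5 and 288.1. Eno2 and Stmn3 fell among 16 tested pan-neuronal genes, Eno2, the neuronal enolase, by 1.17 (limma, adjusted p = 7.79e-06). Of 6 tested immature neuron genes, Sox11, a transcription factor of young neurons and OPCs, rose by 1.46 (limma, adjusted p = 1.00e-06) and Dpysl3, a partner of growth cone tubulin, by 1.17 (limma, adjusted p = 6.00e-07). None of the 6 was called lower, although 3 had negative differences, and that of Igfbpl1 was -0.39 (limma, adjusted p = 0.00524). By limma, 3 of the 6 were higher and 1 lower at an adjusted p under 0.05, which 53.4% of all genes tested reached in either direction. Sox11 was also higher at Day0, with 78.2 and 83.1 FPKM, than in siSbp2l, with 45.05 and 46.1. The transcription factors Neurod2 and Nhlh2 were listed at 0 in every group.

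Genes of transmitter use gave another picture. Of 9 glutamatergic genes 3 were tested and none was called, and Slc17a6, the second vesicular glutamate transporter, was listed at 0 throughout. Of 18 tested vesicle fusion partners, Sv2a, a vesicle glycoprotein, fell by 2.45 (SE 0.10; limma, adjusted p = 1.11e-07), from 26.1 to 86.3 FPKM in the controls to 8.21 and 9.06. None of the 18 was called higher, although by limma 4 were higher and 7 lower at an adjusted p under 0.05. Of all genes tested, 53.4% had an adjusted p under 0.05. Map1b, a microtubule protein of growing processes, fell by 1.68 (limma, adjusted p = 2.85e-06) beside Dcdc2a among 10 tested microtubule partners. The medians of 9 lists in siSbp2l were 0.28 for pan-neuronal, 0.47 for immature neuron, 0.19 for glutamatergic, 0.06 for microtubule, -0.03 for synaptotagmin, -0.23 for vesicle fusion, 0.22 for contactin, 0.15 for β-tubulin and -1.01 for stathmin genes. With median-ratio scaling those of microtubule and β-tubulin genes turned to -0.11 and -0.00265, and with upper-quartile scaling that of microtubule genes was -0.02. Median-ratio scaling also brought the medians of pan-neuronal genes to 0.03, of glutamatergic genes to 0.06 and of contactin genes to 0.08, with that of all genes at 0.00164. Without the NC siRNA#1 group the synaptotagmin median was 0.01.

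In siPdgfra, 10 of the 76 genes were called higher and 9 lower, with a median of 0.21 against 0.09 for all genes. Of all genes tested, 3.97% were called higher and 4.03% lower. Beside those already named, Ina, an intermediate filament protein, rose by 1.87 (limma, adjusted p = 6.79e-07), Uchl1, a neuronal deubiquitinase, by 1.34 (limma, adjusted p = 2.34e-05), and Cdk5r1, the activator of Cdk5, by 1.24 (limma, adjusted p = 6.52e-06). Neurog2, a neurogenic transcription factor, rose by 1.70 (limma, adjusted p = 1.25e-06), but it passed the filter only through siPdgfra, where it was at 3.03 and 3.45 FPKM, and so it had to differ. Igfbpl1 fell by 1.79 (limma, adjusted p = 3.50e-07), and Map1b had a difference of -1.4002 (limma, adjusted p = 8.77e-06). The vesicle genes Vamp2 and Cplx2 fell by 1.17 and 1.12 (limma, adjusted p = 4.06e-05 and 2.99e-06). At Day3 against Day0, 20 of 80 tested genes of the lists were called higher and 20 lower, against 11.6% and 14.4% of all genes. In both NC siRNAs against non-treat and mock, 0 of 76 were called, although by limma 25 higher and 7 lower had an adjusted p under 0.05. Of all genes, 0.472% were called higher there and 0.807% lower, and 28.1% had an adjusted p under 0.05. Between the NC siRNAs 10 of the list genes were called, 4 of them higher. The shares of all genes were 1.63% called higher and 2.36% called lower.

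**Figure D3:**
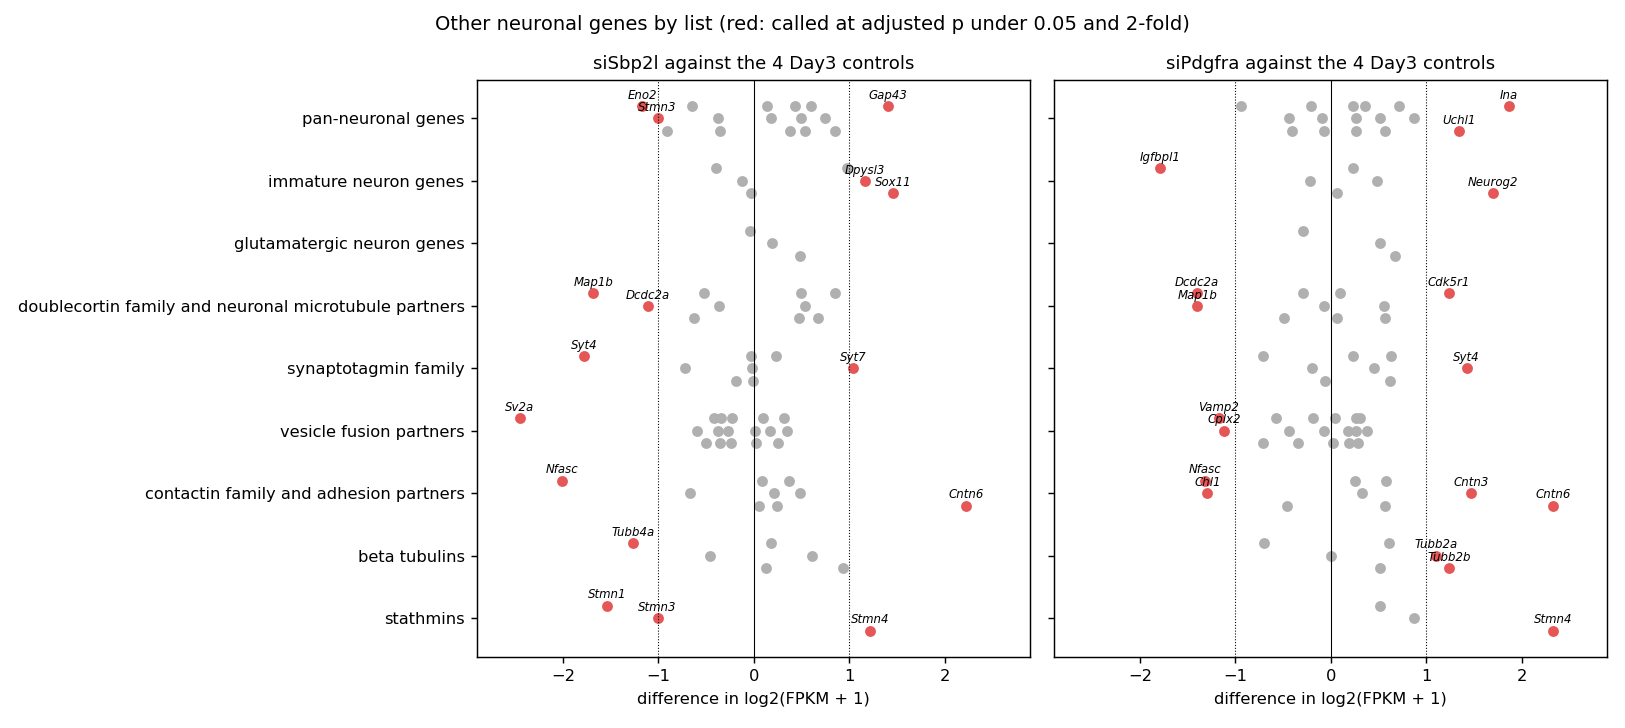
Differences in log2(FPKM + 1) of tested genes of 9 of the 10 neuronal lists (rows; a gene may stand in 2 lists) in siSbp2l (left) and siPdgfra (right) against the 4 Day3 controls, with called genes in red and named. In siSbp2l the red points run from Cntn6 at 2.22 to Sv2a at -2.45.

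The genes whose log2(FPKM + 1) was most like that of a member over the 14 libraries were then listed, as a description, since the libraries share groups and the siSbp2l values shaped the likeness. For Dcx these were Tet2 (Pearson's r = 0.984), Lphn3 (0.968) and L3mbtl3 (0.966). For Syt1 they were Ripk1 (r = 0.970), Lrrtm4 (0.963) and Mllt4 (0.962), and for Cntn2 they were Rxrg (r = 0.993), Crim1 (0.969) and Ablim1 (0.968). Rxrg, which encodes a retinoid receptor, was at 4.69 FPKM in siSbp2l and at most 0.591 in the other group means. Lrrtm4, an adhesion molecule of synapses, was at 5.99 FPKM in siSbp2l, 5.06 in siPdgfra and 0.557 to 3.16 in the controls. Among the members, r was 0.89 between Dcx and Cntn2, 0.77 between Dcx and Syt1 and 0.47 between Syt1 and Cntn2, and r between Snap25 and each of the 3 was at most 0.042.

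The label of a neuron-like group was checked against 10 neuronal markers that are no members. Their summed FPKM was 47.6 to 49.1 at Day0, 15.6 to 24.9 in the 8 control libraries, 18.7 to 18.8 in siSbp2l and 21.2 to 23.6 in siPdgfra, so the sum in siSbp2l lay within the range of its controls. Syn1 and Elavl4, with means of 6.29 and 5.75 FPKM, made up most of the sum in siSbp2l, which therefore says little about single markers. Of the 10 markers, 3 were above all 8 control libraries in both siSbp2l libraries, none was below all of them, and 7 were neither. In siPdgfra, 2 were above, 1 was below and 7 were neither. The share of all genes that lay above or below all controls was not counted, so no excess is read from these counts. A group mean of at least 1 FPKM in siSbp2l was found for 5 markers, which were Rbfox3, Elavl4, Syn1, Nefm and Nefl. Rbfox3 (NeuN) was one of the 3, and its FPKM was 1.10 and 1.20 in siSbp2l and at most 0.599 in each other library. Its log2 difference was 0.75, under 2-fold, and as it had passed the filter only through siSbp2l it had to differ. Elavl4, an RNA-binding protein of neurons, was another, at 5.70 and 5.80 FPKM in siSbp2l and 2.41 to 5.07 in the controls, with a difference of 0.49 (limma, adjusted p = 0.0119), under 2-fold. Syn1, Nefm and Nefl, which mark vesicles and axons, were at 6.29, 1.57 and 1.92 FPKM in siSbp2l and at 6.36 to 11.1, 1.42 to 4.68 and 1.25 to 1.91 in the control means, and Slc17a6 was listed at 0. The neuronal genes were thus mixed in siSbp2l. Dcx, Syt1 and Cntn2 were above all controls, but they were picked for that and do not bear on the label. Of the 10 markers, 3 were above all controls, among them Rbfox3, which was tested only through siSbp2l. Tubb3 depended on the control, and Snap25 and the summed markers were not above the range of the controls. Stmn2 and Slc17a7 were too low for a difference to be detected. Summed markers of astrocytes were 102 to 109.7 FPKM in siSbp2l and 89.97 to 158 in the controls, those of microglia 3.29 to 3.91 and 0.768 to 9.46 (nearly all P2ry12, while Aif1, C1qa and Tmem119 were at or near 0), and those of endothelial, mural and fibroblast cells were below 0.4 in every library. In these bulk samples, more cells of a kind and more RNA per cell cannot be told apart, and the part of other cell types in the values of the members was not tested.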

How the data were processed

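Stranded mRNA-seq was done for 14 libraries in 7 groups. The deposited table named as counts holds FPKM values that the authors made per library in OmicSoft ArrayStudio (mm10 and DESeq2 are named in the submitters' processing notes; the aligner is not given in the sources used here), so no count test was run on it. A second deposited table holds the authors' log2 fold changes and p-values, of which only its gene coordinates and exon lengths were used.

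Fragments per gene were estimated from the FPKM steps of low genes with 1 annotated transcript, and 88.6 to 92.5% of these came out within 0.1 of a whole number. Over low genes with any number of transcripts it was 78.5 to 82.4%. Dcx and Syt1, with 4 and 3 annotated transcripts, are not of the first kind, and their fragments are given to the nearest whole number. Limits of 3 fragments cover counting error only. Genes with an FPKM of at least 1 in at least 2 libraries were tested on log2(FPKM + 1) with limma 3.58.1 (R 4.3.3; trend and robust settings, Benjamini-Hochberg adjustment over all genes tested), once over 14 libraries for Day0 and once over the 12 Day3 libraries, with 7 and 6 residual degrees of freedom. A call needed an adjusted p under 0.05 and a 2-fold change. The test was first tried on simulated data for siPdgfra against the 4 Day3 controls, and the other comparisons were not simulated. The members and gene lists were chosen with earlier results of these data known. Named beside the members were list genes called in a knockdown (at most 5 per list and direction), the paralogs with the highest and lowest mean, and the 3 genes most correlated with Dcx, Syt1 and Cntn2. Other genes named, such as Rbfox3, Elavl4, Syn1, Nefm, Nefl, Neurod2, Nhlh2 and Snap29, were chosen after their values were seen. Replicate numbers were not used as pairs in the main fits. Correlations of replicate differences over 21 pairs of groups ran from -0.38 to 0.473, with a median of 0.02 and 4 pairs over 0.1. Whether some groups shared a batch by replicate number was therefore not settled. Promoters are RefSeq entries of GRCm38.p6, matched by symbol. Some list genes that entered the counts are not reported here by name. Alternatives covered scaling, pseudocount, filter, fold threshold, replicate block and left-out libraries.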

Additional observations from a re-analysis of the deposited data

How the results depend on the processing

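Of the 7 genes, 2 were called at Day3 against Day0, 1 between NC siRNAs and non-treat with mock, 1 between the NC siRNAs and 1 in siPdgfra, and 16 list genes were called in siSbp2l. For Day3 against Day0 the count was 1 with median-ratio or upper-quartile scaling, with a pseudocount of 5 or with an FPKM minimum of 5, 4 with a pseudocount of 0.1, 5 with no fold threshold, and 1 to 3 when single libraries were left out (1 without Day0 replicate 2 or non-treat replicate 1, 3 without mock replicate 2). For NC siRNAs against non-treat and mock it was 0 without the non-treat group, 0 without the NC siRNA#1 group, and 0 to 1 with single libraries left out (0 without non-treat replicate 2). Between the NC siRNAs it was 2 with median-ratio scaling or a pseudocount of 0.1 and 3 with no fold threshold. For siPdgfra it was 2 with a pseudocount of 0.1 or without the NC siRNA#1 group, 0 with a pseudocount of 5 or an FPKM minimum of 5, 4 with no fold threshold, and 1 to 2 with single libraries left out (2 without non-treat replicate 1). In siSbp2l, 53 list genes were called with no fold threshold, where 53.4% of all genes had an adjusted p under 0.05. That share was 70.7% at Day3 against Day0, 21.0% between the NC siRNAs and 55.4% in siPdgfra. Shares of all genes under the other alternatives are not given here, so no excess is read from these counts. With single libraries left out 15 to 17 list genes were called, and 11 to 20 under the other settings. Without the NC siRNA#1 group, Syt1 and Cntn2 turned to -0.38 and -0.016 for NC siRNAs against non-treat and mock. These 2 settings without a control group were added after seeing the data. With the FPKM minimum of 5, Syt1 was not tested at all, because only siSbp2l replicate 2 reached that level. The cause of the other changes was not tested.

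With the replicate block the counts were again 2, 1, 1, 1 and 16. No call changed, but 2 adjusted p-values crossed 0.05: for NC siRNAs against non-treat and mock, Dcx had an adjusted p of 0.0453 with the block by limma, and 0.0522 without it, and between the NC siRNAs Cntn2 had 0.0589 with it and 0.0424 without it. Few fragments limit Snap25, Stmn2, Slc17a7 and, outside siSbp2l, Cntn2.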
